A study of Homo sapiens with 16 samples.

Results

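NBPF1, NBPF9, NBPF10, NBPF11, NBPF12, NBPF14, NBPF15, NBPF19, NBPF20 and NBPF26 are 10 genes of the neuroblastoma breakpoint family on chromosome 1, of 19970 protein-coding genes in the RefSeq annotation of GRCh38.p14. They were chosen by name, each gene body was extended by 1 kb at both ends, and every peak of 20 deposited lists that touched an extended body was taken. The genes were picked with TRIM28 values of shARID1A against shCtrl cells in view, so that comparison is given here as a description. The study used chromatin immunoprecipitation with sequencing (ChIP-seq) to relate ARID1A to heterochromatin in HCT116, an established cell line from a human colon cancer. Cells with an shRNA against ARID1A (shARID1A) gave libraries for H3K9me3, TRIM28 and SETDB1. Cells with a control shRNA (shCtrl) gave libraries for the same 3 targets and for ARID1A. Cells with no shRNA in their label (unmodified) gave libraries for H3K9me3, TRIM28 and ARID1A. Each of these 10 groups had 1 library, so no test between groups was possible, and every interval below covers counting error only. The labels do not give the shRNA sequence, its promoter, or whether a line was 1 clone, and no ARID1A ChIP of shARID1A cells was analysed here, so the knockdown was not checked.

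NBPF genes code for proteins built largely from tandem copies of the Olduvai domain, formerly called DUF1220, whose number rose steeply in the human lineage. Most of them lie in segmental duplications around the centromere and at 1q21, interleaved with NOTCH2NL, SRGAP2 and FAM72 copies, and the functions of the proteins are poorly known. ARID1A is a DNA-binding subunit of SWI/SNF chromatin remodellers, TRIM28 is a corepressor that brings in the histone methyltransferase SETDB1, and H3K9me3 is the mark SETDB1 writes. In duplicated sequence a short read can match several copies equally well, so a read aligner may place it at any one of them or discard it, and a peak there may belong to another copy. How such reads were treated is not given in the sources used here.

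How alike the copies are can be seen where transcription starts. RefSeq windows from 250 bases before to 50 after the start were matched for 8 of the 10 genes by symbol (none was held for NBPF20 or NBPF26). The 2 most similar pairs of CpG-rich windows and NBPF1, which stood apart in the peak data, are shown 5′ to 3′ on the strand of the gene. Capitals mark the longest stretch that a window shares exactly with its closest partner among the 8, which is NBPF15 for NBPF9, NBPF12 for NBPF11, and NBPF9 for NBPF1. The windows are NBPF9 at chr1:149103502-149103801, NBPF15 at chr1:144461620-144461919, NBPF11 at chr1:148152232-148152531 and NBPF1 at chr1:16613515-16613814, all on the minus strand, and NBPF12 at chr1:146938074-146938373 on the plus strand.
NBPF9: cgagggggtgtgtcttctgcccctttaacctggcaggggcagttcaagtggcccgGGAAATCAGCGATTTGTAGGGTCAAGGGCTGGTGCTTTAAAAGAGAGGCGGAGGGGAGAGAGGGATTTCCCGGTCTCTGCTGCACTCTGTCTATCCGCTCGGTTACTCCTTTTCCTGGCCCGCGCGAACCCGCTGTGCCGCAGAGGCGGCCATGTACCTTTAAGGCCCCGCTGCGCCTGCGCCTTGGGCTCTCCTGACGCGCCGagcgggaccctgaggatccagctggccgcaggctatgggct
NBPF15: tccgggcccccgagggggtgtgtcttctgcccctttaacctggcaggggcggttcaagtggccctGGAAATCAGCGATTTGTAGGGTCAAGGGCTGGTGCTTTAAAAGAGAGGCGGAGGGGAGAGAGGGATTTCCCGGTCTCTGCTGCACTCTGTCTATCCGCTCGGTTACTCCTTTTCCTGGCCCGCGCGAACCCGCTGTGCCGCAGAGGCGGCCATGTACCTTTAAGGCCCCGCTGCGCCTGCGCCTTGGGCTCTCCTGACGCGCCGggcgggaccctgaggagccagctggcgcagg
NBPF11: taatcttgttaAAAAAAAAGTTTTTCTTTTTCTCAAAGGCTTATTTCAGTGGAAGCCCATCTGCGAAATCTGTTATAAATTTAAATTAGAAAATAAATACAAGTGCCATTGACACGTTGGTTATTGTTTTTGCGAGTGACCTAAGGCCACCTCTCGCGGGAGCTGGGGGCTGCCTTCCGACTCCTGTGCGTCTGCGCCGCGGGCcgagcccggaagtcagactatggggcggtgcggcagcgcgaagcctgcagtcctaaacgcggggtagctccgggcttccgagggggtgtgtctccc
NBPF12: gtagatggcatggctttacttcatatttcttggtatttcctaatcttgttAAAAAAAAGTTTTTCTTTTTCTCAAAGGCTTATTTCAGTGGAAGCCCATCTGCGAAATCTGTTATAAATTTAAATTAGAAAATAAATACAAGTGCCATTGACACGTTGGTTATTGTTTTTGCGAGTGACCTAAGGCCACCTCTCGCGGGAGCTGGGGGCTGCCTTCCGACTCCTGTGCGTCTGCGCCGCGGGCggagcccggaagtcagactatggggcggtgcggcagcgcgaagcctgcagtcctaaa
NBPF1: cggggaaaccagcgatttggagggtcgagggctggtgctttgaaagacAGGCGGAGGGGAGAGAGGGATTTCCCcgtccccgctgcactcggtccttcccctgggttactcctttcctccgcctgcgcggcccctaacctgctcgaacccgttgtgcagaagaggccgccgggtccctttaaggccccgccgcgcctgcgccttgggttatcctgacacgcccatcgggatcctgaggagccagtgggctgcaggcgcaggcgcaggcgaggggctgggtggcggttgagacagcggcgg

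The NBPF9 and NBPF15 windows shared 204 bases in a row and were identical at 98.3% of 291 aligned columns. NBPF11 and NBPF12 shared 193 bases in a row, with 99.2% identity over 261 columns. NBPF1 had no close partner among the 8, with 26 bases in a row in common with NBPF9 and 81.1% identity over 254 columns. Of the 50-base words in a window, 83.7% for NBPF15, 68.1% for NBPF9, 66.1% for NBPF10 and 60.2% each for NBPF11 and NBPF12 also occurred in the start window of another gene. For NBPF1 and NBPF19 the share was 0. NBPF14 has 2 windows in the table. The outer one, used here, had a share of 1.2%, and the inner one, at chr1:148595668-148595967, had 66.1%, all with NBPF10, with which it shared 152 bases in a row and was identical at 99.6% of 265 columns. Thus 6 of 8 NBPF windows held at least 1 such word, against 23.2% of the windows of 1739 other chromosome 1 protein-coding genes. Only these short windows could be compared, since no genome sequence was used, so the uniqueness of the gene bodies was not measured.

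The windows also fell into 2 kinds by their CpG content. NBPF1, NBPF15, NBPF9, NBPF11 and NBPF12 held 26, 22, 21, 20 and 16 CpG dinucleotides. NBPF10 and NBPF14 held 4 each and NBPF19 held 2, against a median of 20 over the windows of other chromosome 1 genes.

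From left to right on chromosome 1, NBPF1, the family's founding gene, lies far to the left of the others at chr1:16562423-16613564, and NBPF26 lies at chr1:120723945-120842229. The other 8 lie further right, on the long arm. These are NBPF15 (chr1:144421390-144461669), NBPF20 (chr1:145289900-145425603), NBPF10 (chr1:146064699-146144804), NBPF12 (chr1:146938324-146996198), NBPF11 (chr1:148102151-148152281), NBPF14 (chr1:148531385-148596011), NBPF9 (chr1:149052186-149103551) and NBPF19 (chr1:149475045-149556361). NBPF12 and NBPF19 are on the plus strand, NBPF20 and NBPF26 had no strand in the tables used, and the other 6 are on the minus strand. The bodies ranged from 40.3 kb (NBPF15) to 136 kb (NBPF20) with a median of 61.3 kb, against 24.2 kb for all protein-coding genes, so shares of genes with a peak are also given for genes within the size range of the 10 (long genes). NBPF26 overlaps NOTCH2NLR, which has the same left end, so a peak there counts for both.

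Lists were called by the authors against input DNA and against IgG for each library, and the list against input is used unless IgG is named. A peak's fold enrichment is the authors' ratio of the scaled reads at its summit to the local background, with 1 added to each. A peak is called strong below where its q, the authors' p adjusted over the list, was at most 0.05. Fragments are the whole DNA fragments at the summit before scaling, recovered here from the deposited fold and p. Local backgrounds are on the scaled count. Depth was low in every list, with a median of 5 to 12 fragments at the summit of peaks sampled with those of high fold left out. The number of peaks on chromosomes 1 to 22 and X ran from 11374 in the unmodified H3K9me3 list to 203714 in the shARID1A TRIM28 list. Some libraries stood apart from their labels. Of the strong peaks of the library labelled shARID1A H3K9me3, 65.3% lay at a peak of shCtrl SETDB1 and 8.0% at one of shCtrl H3K9me3. Of those of unmodified ARID1A, 93.2% lay at a peak of the library labelled shCtrl H3K9me3 and 44.8% at one of shCtrl ARID1A. State and antibody below are those of the labels. Inside the NBPF genes, 0 of 11 shARID1A H3K9me3 peaks lay at a shCtrl SETDB1 peak, 0 of 11 unmodified ARID1A peaks lay at a shCtrl H3K9me3 peak and 3 of 11 (27.3%) at a shCtrl SETDB1 peak, none of these 22 peaks being strong. For all peaks of other chromosome 1 genes, strong or not, these shares were 27.9%, 29.0% and 29.7%.

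Most peaks in the NBPF genes were weak, as they were in other genes. The 10 input lists held 199 peaks in them, of which 9 (4.52%) were strong and 103 were also found against IgG. Of the peaks of other chromosome 1 genes in these lists 8.69% were strong, or 5.99% when each list is weighted by its number of NBPF peaks. Their fold ran from 1.6 to 6.91 with a median of 2.7, on 3 to 49 fragments with a median of 7. The q was 1 for 78.9% of them. The 10 IgG lists held 441 peaks, of which 19 (4.31%) were strong, against 6.99% in other genes (5.71% so weighted), with folds from 1.58 to 7.33 and a median of 2.41. Every one of the 10 genes had at least 1 peak in 4 or more input lists, and NBPF1, NBPF19, NBPF20 and NBPF26 had at least 1 in all 10. The first was true of 54.1% of all protein-coding genes and 87.3% of long genes, and the second of 6.08% and 6.78%.

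**Figure D1:**
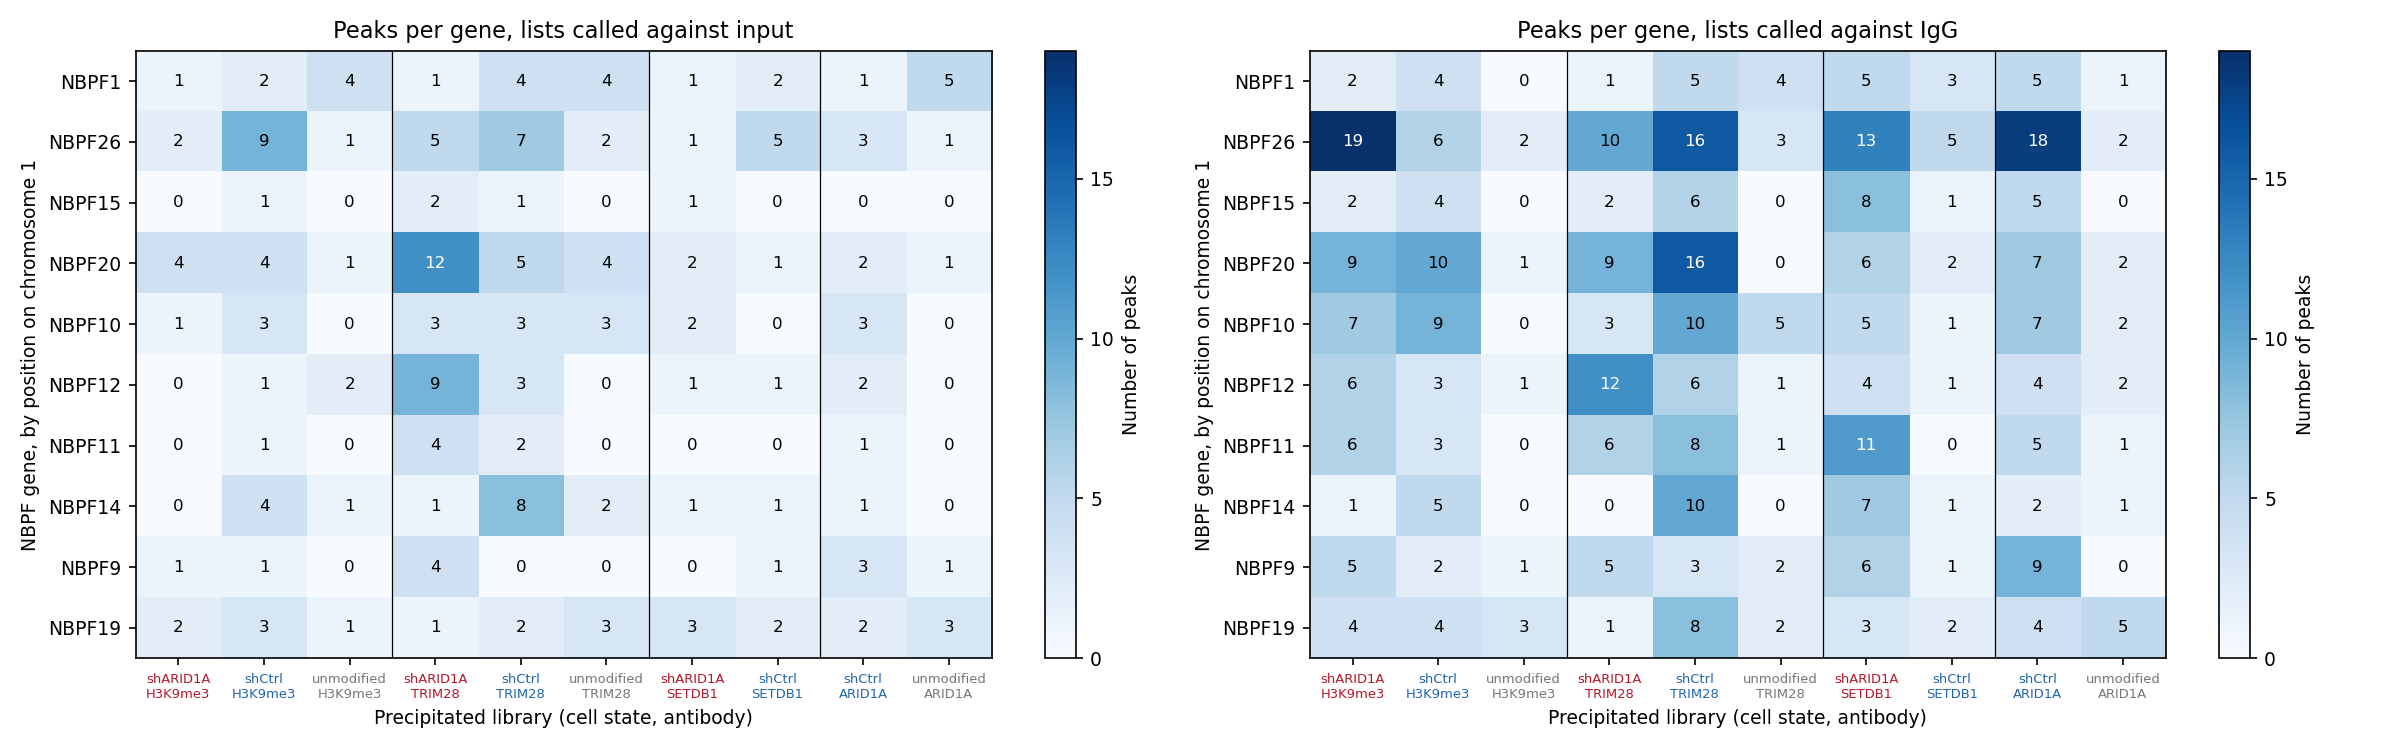
Number of peaks in each NBPF gene (rows, by position on chromosome 1) in each of the 10 libraries (columns; shARID1A red, shCtrl blue, unmodified grey), called against input on the left and against IgG on the right. NBPF20 holds 12 shARID1A TRIM28 peaks against input and 5 in shCtrl, while NBPF14 holds 1 and 8.

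Per 100 kb of extended body and summed over the 10 input lists, NBPF1 held the most peaks (47.0) and NBPF15 the fewest (11.8), with NBPF11 at 15.3 and the other 7 genes between 20.6 and 31.7. The order was another against IgG. NBPF11 (78.6) and NBPF26 (78.1) were then highest, and NBPF14 (40.5) and NBPF19 (43.2) lowest. NBPF11 thus had 41 peaks against IgG and 8 against input, whereas NBPF1 had 30 and 25. By state, NBPF1 also differed from the others, with 3 input peaks in shARID1A, 9 in shCtrl and 13 in unmodified libraries, whereas NBPF26 had 8, 24 and 4, NBPF20 had 18, 12 and 6, and NBPF15 had 3, 2 and 0.

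H3K9me3 peaks were found in 6 of the 10 genes in shARID1A cells, in all 10 in shCtrl cells and in 6 in unmodified cells. Of all protein-coding genes, 46.8%, 46.8% and 13.6% had one in these lists, and of long genes, 70.1%, 75.3% and 20.5%. NBPF26 had 2 H3K9me3 peaks in shARID1A cells, against 9 in shCtrl cells and 1 in unmodified cells. NBPF14 had 0, 4 and 1 in the same order of states, NBPF19 had 2, 3 and 1, NBPF10 had 1, 3 and 0, and NBPF20 had 4, 4 and 1. The genes with a peak in shCtrl and none in shARID1A cells were NBPF11, NBPF12, NBPF14 and NBPF15, a pattern seen in 15.7% of all protein-coding genes and in 19.2% of long genes. None had the opposite pattern, which 15.7% of all genes and 13.9% of long genes had. Against IgG, all 10 genes had a peak in both states. Of all genes, 85.3% had one in shARID1A and 77.9% in shCtrl. Among long genes the shares were 98.6% and 97.8%, with 97.0% in both, so 10 of 10 is near the background.

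TRIM28 peaks were found in all 10 genes in shARID1A cells, in 9 in shCtrl cells and in 6 in unmodified cells, against 72.4%, 40.4% and 28.4% of all protein-coding genes and 95.9%, 66.6% and 46.4% of long genes. The numbers per gene moved in both directions. NBPF20 had 12 TRIM28 peaks in shARID1A cells, against 5 in shCtrl cells and 4 in unmodified cells. NBPF12 had 9, against 3 and 0, NBPF9 had 4, against 0 and 0, and NBPF11 had 4, against 2 and 0. NBPF14 had 1 in shARID1A cells, against 8 in shCtrl cells and 2 in unmodified cells, and NBPF1 had 1, against 4 and 4. NBPF26 had 5, 7 and 2. NBPF9 was the 1 gene with a TRIM28 peak in shARID1A and none in shCtrl cells, a pattern of 35.7% of all genes and 30.4% of long genes. Against IgG the NBPF14 numbers were 0 and 10 in shARID1A and shCtrl, and none of these peaks was strong. A peak in shCtrl alone was found in 5.83% of all genes and 1.54% of long genes. The genes were picked with this TRIM28 comparison in view, so these shares do not show that a gene is unusual. NBPF12 again had more in shARID1A cells (12, against 6 in shCtrl). For NBPF20, NBPF11 and NBPF15 the direction changed with the control. Against IgG, NBPF20 had 9 in shARID1A and 16 in shCtrl cells, NBPF11 had 6 and 8, and NBPF15 had 2 and 6, where NBPF15 had 2 and 1 against input.

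SETDB1 peaks were found in 8 genes in shARID1A cells and in 7 in shCtrl cells, against 43.7% and 58.7% of all protein-coding genes and 65.3% and 82.2% of long genes. NBPF10 and NBPF15 had a peak in shARID1A and none in shCtrl cells (10.0% of all genes and 8.24% of long genes), and NBPF9 the reverse (25.0% and 25.1%). NBPF26 had 1 SETDB1 peak in shARID1A cells, against 5 in shCtrl cells, and no other gene had more than 3 in either. NBPF11 had none in both lists against input, but 11 in shARID1A and 0 in shCtrl cells against IgG. A peak in shARID1A alone was found in 15.1% of all genes and 7.37% of long genes. ARID1A peaks were found in 9 genes in shCtrl cells and in 5 in unmodified cells, against 52.4% and 25.8% of all protein-coding genes and 75.8% and 41.9% of long genes. NBPF1 had 1 ARID1A peak in shCtrl cells and 5 in unmodified cells, NBPF9 had 3 and 1, NBPF10 had 3 and 0, and NBPF19 had 2 and 3.

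To take out the length of each list, peaks per Mb of the NBPF genes (0.751 Mb in all) were divided by peaks per Mb of the 2051 other protein-coding genes of chromosome 1 (115 Mb). This density ratio for H3K9me3 was 0.714 (exact 95% interval 0.356 to 1.28, 11 peaks) in shARID1A cells, 0.946 (0.633 to 1.36, 29 peaks) in shCtrl cells and 3.25 (1.55 to 6.02, 10 peaks) in unmodified cells. For TRIM28 it was 0.761 (0.548 to 1.03, 42 peaks) in shARID1A cells, 1.6 (1.11 to 2.23, 35 peaks) in shCtrl cells and 1.74 (1.03 to 2.76, 18 peaks) in unmodified cells. SETDB1 was at 0.979 (0.505 to 1.71, 12 peaks) in shARID1A cells and 0.48 (0.255 to 0.822, 13 peaks) in shCtrl cells. ARID1A was at 0.456 (0.27 to 0.721, 18 peaks) in shCtrl cells and 1.0 (0.501 to 1.8, 11 peaks) in unmodified cells. NBPF genes were thus sparser in peaks than other chromosome 1 genes, beyond counting error, for shCtrl SETDB1 and shCtrl ARID1A. They were denser for unmodified H3K9me3 and TRIM28. The shCtrl TRIM28 ratio was also above 1. With either control the shARID1A and shCtrl TRIM28 ratios are descriptions, since the genes were chosen with these values in view.

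Several of these cases depended on the control. Against IgG the ratios for shCtrl TRIM28, unmodified H3K9me3 and unmodified TRIM28 were 1.09 (0.874 to 1.34), 1.17 (0.503 to 2.31) and 0.864 (0.512 to 1.37), all with intervals that include 1. Those for shCtrl SETDB1 and shCtrl ARID1A were below 1 with this control too, at 0.439 (0.256 to 0.704) and 0.59 (0.456 to 0.751). A further 4 lists had intervals that include 1 against input and lie below 1 against IgG. These were shARID1A H3K9me3 at 0.716 (0.547 to 0.92), shCtrl H3K9me3 at 0.684 (0.507 to 0.903), shARID1A TRIM28 at 0.54 (0.399 to 0.714) and shARID1A SETDB1 at 0.726 (0.564 to 0.921). The high unmodified H3K9me3 value also rested partly on NBPF1, which held 4 of its 10 peaks, and was 2.1 on 6 peaks without that gene. NBPF1 also held 4 of the 18 unmodified TRIM28 peaks, and that ratio was 1.46 on 14 peaks without it. Unmodified ARID1A was 0.59 without NBPF1. No intervals are given for these 3 values, so whether unmodified H3K9me3 and TRIM28 stayed above 1 beyond counting error was not tested.

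**Figure D2:**
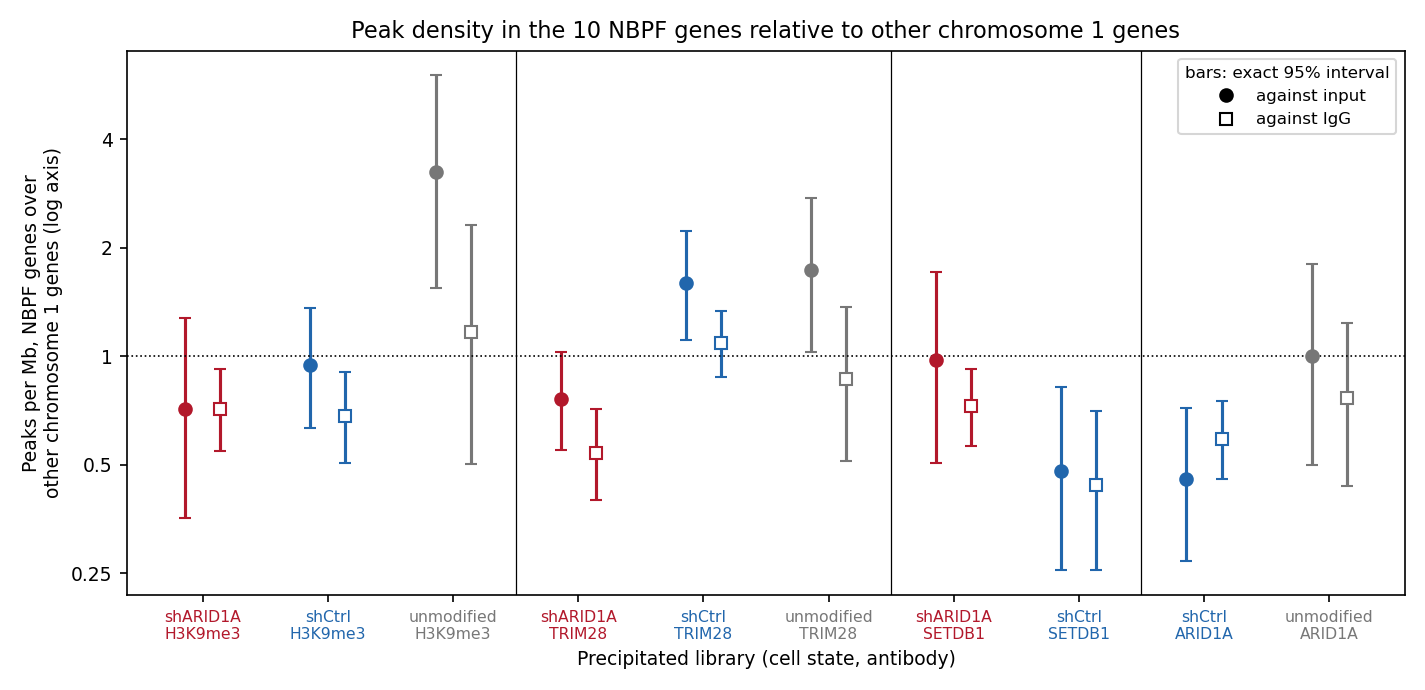
Peaks per Mb in the 10 NBPF genes over peaks per Mb in other chromosome 1 protein-coding genes (log axis) for each library, against input (filled circles) and IgG (open squares), with exact 95% binomial intervals. The shCtrl SETDB1 and shCtrl ARID1A values lie below 1 with both controls, at 0.48 and 0.439 and at 0.456 and 0.59.

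Between shARID1A and shCtrl cells the log2 difference of the TRIM28 density ratio was -1.07 against input and -1.01 against IgG. TRIM28 peaks in the NBPF genes numbered 42 in shARID1A and 35 in shCtrl cells against input, while those in other chromosome 1 genes numbered 8442 and 3352. Against IgG they numbered 49 and 88 in the NBPF genes and 13887 and 12344 in the others. With input as the control the NBPF number was thus higher in shARID1A cells and with IgG it was lower, while the ratio was lower with both, and these TRIM28 values are a description, since the genes were chosen with this comparison in view. For H3K9me3 the log2 difference was -0.41 (95% interval -1.41 to 0.60) against input and 0.07 (-0.48 to 0.61) against IgG. For SETDB1 it was 1.03 (-0.11 to 2.16) and 0.73 (-0.04 to 1.49). Both intervals of H3K9me3 and both of SETDB1 include 0, so no difference was detectable at this depth.

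The 9 strong input peaks lay in 6 genes. In shCtrl cells SETDB1 gave 6 of them in 5 genes (43.5% of all protein-coding genes had a strong peak in that list), and H3K9me3 gave 2, both in NBPF26 (11.7%). In shARID1A cells TRIM28 gave the remaining 1, in NBPF20 (3.88%). Among long genes the shares were 62.9% for shCtrl SETDB1, 18.2% for shCtrl H3K9me3 and 4.78% for shARID1A TRIM28, so 5 of 10 and 1 of 10 genes were near the background in the shCtrl lists. The shARID1A TRIM28 count is the NBPF20 peak, which was known when the genes were chosen. Of the 9, 7 were strong against IgG as well. In the other 7 input lists none of the 10 genes had a strong peak, where 17.4% of all genes had one for shARID1A H3K9me3, 3.91% for shARID1A SETDB1, 1.96% for unmodified ARID1A, 0.0851% for shCtrl ARID1A, 0.0351% for shCtrl TRIM28, 0.025% for unmodified TRIM28 and 0.01% for unmodified H3K9me3.

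The tallest was a shCtrl H3K9me3 peak in NBPF26 at chr1:120748296-120748894, in the stretch shared with NOTCH2NLR. Its fold was 6.91 against input (17 fragments, q 1.07e-06) and 7.33 against IgG. In shARID1A cells the H3K9me3 list against IgG held a weaker peak on this place, with a fold of 2.73 on 5 fragments (q 0.439), and the one against input held none. NBPF26 carried a second strong shCtrl H3K9me3 peak at chr1:120769106-120769498 (fold 4.91, 12 fragments), which was not found against IgG. It also carried strong shCtrl SETDB1 peaks at chr1:120731453-120731756 (fold 4.11 against input and 3.64 against IgG) and at chr1:120724836-120725149 (3.94 and 4.37). At the last place the shCtrl H3K9me3 lists held a peak of 7 fragments with folds of 3.25 against input and 3.58 against IgG, neither strong. All 4 of these places also belong to NOTCH2NLR.

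NBPF1 held a shCtrl SETDB1 peak at chr1:16591731-16592359, 21661 bases inside the gene from its start, with a fold of 6.01 against input (18 fragments, q 9.16e-07) and 2.69 against IgG (q 0.0192). The fragments were the same in both lists, but the library was scaled by 0.7445 in the input list and by 0.992 in the IgG list. The local background on the scaled count was 1.4 in the input and 6.0 in the IgG list, so these backgrounds are not on the same scale. Weaker input peaks lay at this place for shCtrl TRIM28 (fold 2.19) and for unmodified ARID1A (fold 2.90).

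The strong shARID1A TRIM28 peak of NBPF20 lay at chr1:145425386-145425828, with its summit at 99.9% of the gene body, that is, at the right end of the gene. It had 11 fragments and a fold of 5.65 against input (q 0.000134) and 5.20 against IgG (q 0.000633). A shARID1A SETDB1 peak of 7 fragments overlapped it (fold 3.61 against input and 3.38 against IgG, neither strong), and so did a shARID1A H3K9me3 peak against IgG (fold 3.0). No list of shCtrl or unmodified cells held a peak there. The tables used give no strand for NBPF20, so whether this end is its start was not settled.

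The remaining strong input peaks were all from shCtrl SETDB1. NBPF9 had one at chr1:149075595-149075838 (fold 4.06, 15 fragments), which was not found against IgG. NBPF14 had one at chr1:148589230-148589501, 6616 bases inside the gene (fold 3.94 against input and 3.96 against IgG, 9 fragments), and SETDB1 in shARID1A cells had a peak on the same place with a fold of 2.87 (8 fragments). NBPF12 had one at chr1:146972739-146972977 (fold 3.69 against input and 3.64 against IgG, 10 fragments). NBPF14 also held the tallest shCtrl TRIM28 peak of the 10 genes, with a fold of 4.76, which did not pass the q threshold. NBPF10, NBPF11, NBPF15 and NBPF19 had no strong input peak.

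**Figure D3:**
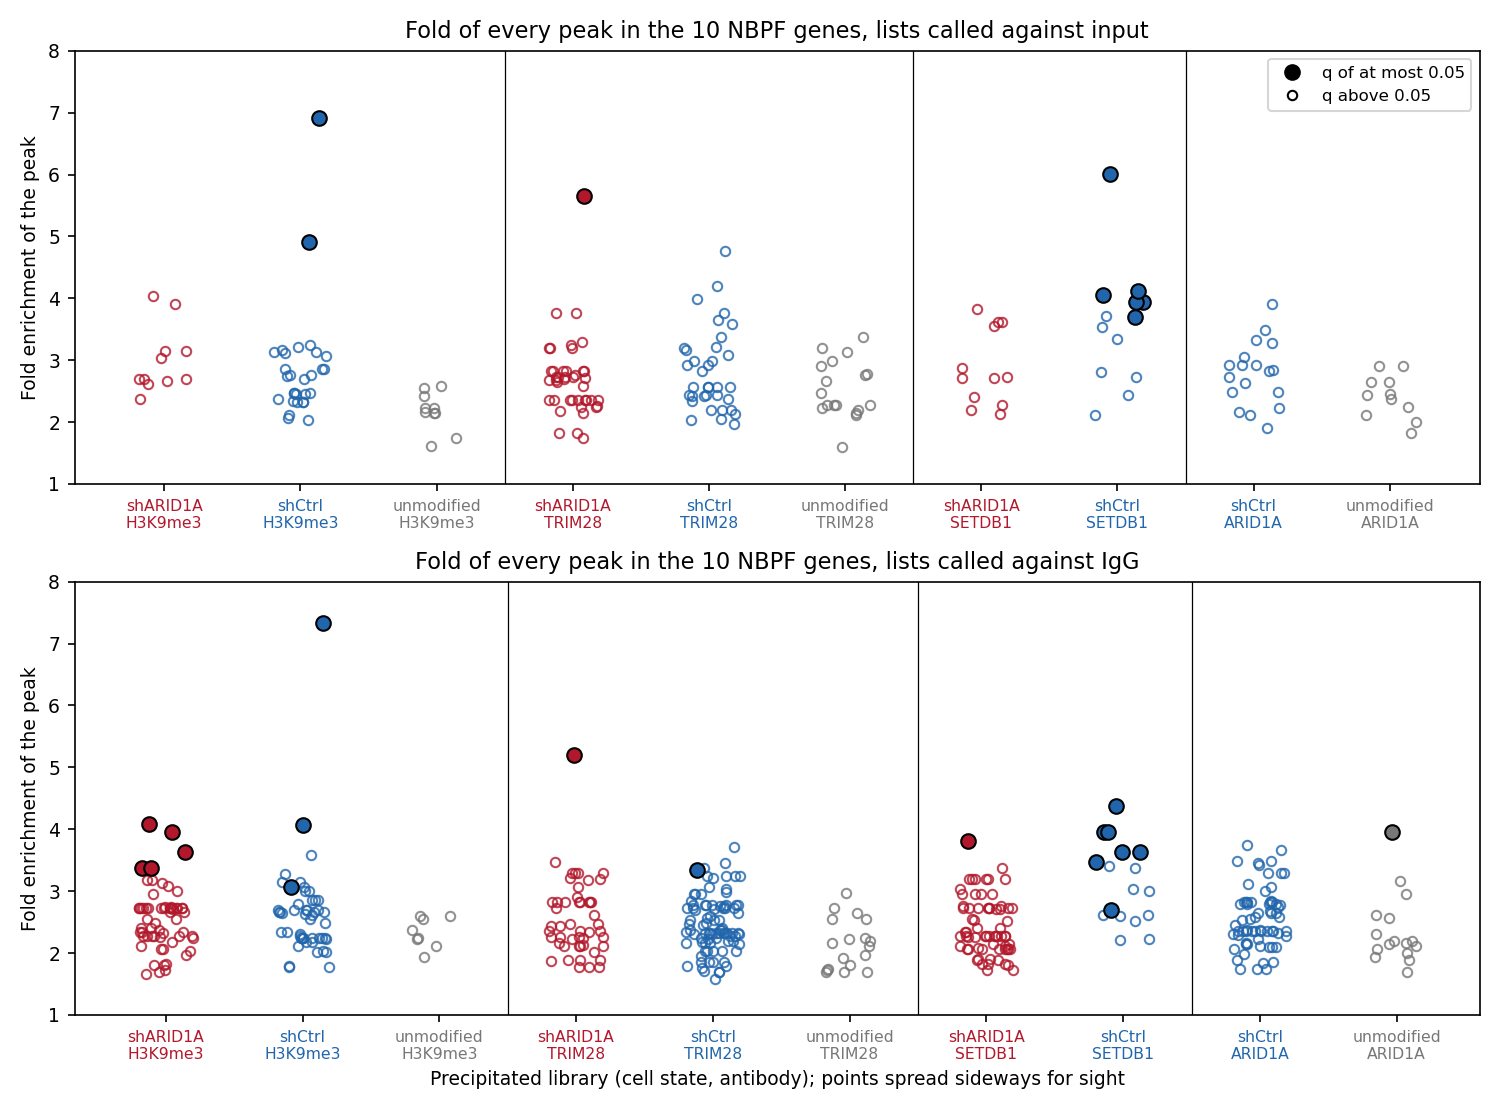
Fold enrichment of every peak in the 10 NBPF genes by library, against input (top) and IgG (bottom); filled points have a q of at most 0.05. Most peaks lie below a fold of 4, and the tallest are the shCtrl H3K9me3 peak of NBPF26 (6.91 and 7.33), the shCtrl SETDB1 peak of NBPF1 against input (6.01) and the shARID1A TRIM28 peak of NBPF20 (5.65 and 5.20).

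Against IgG, strong peaks reached further genes. For H3K9me3, 5 genes had one in shARID1A cells (48.3% of all protein-coding genes and 64.6% of long genes) and 3 in shCtrl cells (22.8% and 35.6%). NBPF9 had a strong shARID1A H3K9me3 peak 563 bases inside its start (fold 4.09) and NBPF10 one further in (fold 3.96), while in shCtrl cells NBPF10 had one elsewhere (fold 4.07). NBPF12 was the 1 gene with a strong shCtrl TRIM28 peak, in a list where 0.741% of all genes and 0.949% of long genes had one. This peak, at chr1:146991349-146991628 (fold 3.34, 18 fragments, q 0.0311), lay on a strong shCtrl H3K9me3 peak at chr1:146991416-146991646 (fold 3.06, 18 fragments, q 0.00485). The local background under them, 4.7 and 5.2 fragments, was 3.76 and 3.91 times the median of peaks in other chromosome 1 genes. For SETDB1, 5 genes had a strong peak in shCtrl cells (58.1% of all genes and 77.8% of long genes) and 1, NBPF19, in shARID1A cells (19.8% and 24.0%). NBPF19 had one near its start in both states, and these overlapped. They lay at chr1:149475555-149476160 in shARID1A cells (fold 3.81) and at chr1:149475799-149476085 in shCtrl cells (fold 3.96). For ARID1A, NBPF19 alone had a strong peak, in unmodified cells (2.0% of all genes and 2.69% of long genes). That peak lay at chr1:149534679-149535059 (fold 3.95, 18 fragments, q 0.0379), and its fold against input was 2.65, not strong.

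The local background of a peak is what the peak caller expects there from control reads, and it cannot go below a floor set for each list. Of the peaks of the other 9 genes, 57 of 168 against input and 163 of 397 against IgG lay within 2% of that floor, so values near 1 below do not show how many control reads a copy received. Of the NBPF1 peaks, 0 of 23 and 0 of 28 did. Each peak's background was divided by the median over peaks in other chromosome 1 genes of the same list. The median of this ratio over the peaks of NBPF1 was 2.08 against input (23 peaks, range 1.04 to 6.05) and 3.25 against IgG (28 peaks, range 1.20 to 6.14). For each of the other 9 genes the median lay between 0.943 and 1.10 against input and between 0.891 and 1.32 against IgG. The NBPF1 background was raised in all 3 states, with IgG medians of 4.23 in shARID1A, 3.44 in shCtrl and 2.46 in unmodified cells. A background at least 2 times the median lay under 13 of 23 NBPF1 peaks and under 10 of 168 peaks in the other genes against input, and under 24 of 28 and 25 of 397 against IgG. The copy number of this sequence in HCT116 and the placing of reads from other copies were not tested. NBPF12 had the highest single values, 7.44 under an unmodified H3K9me3 peak at chr1:146985152-146985632 (49 fragments, fold 1.74) and 10.9 under a shCtrl TRIM28 peak against IgG at chr1:146989504-146989741.

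**Figure D4:**
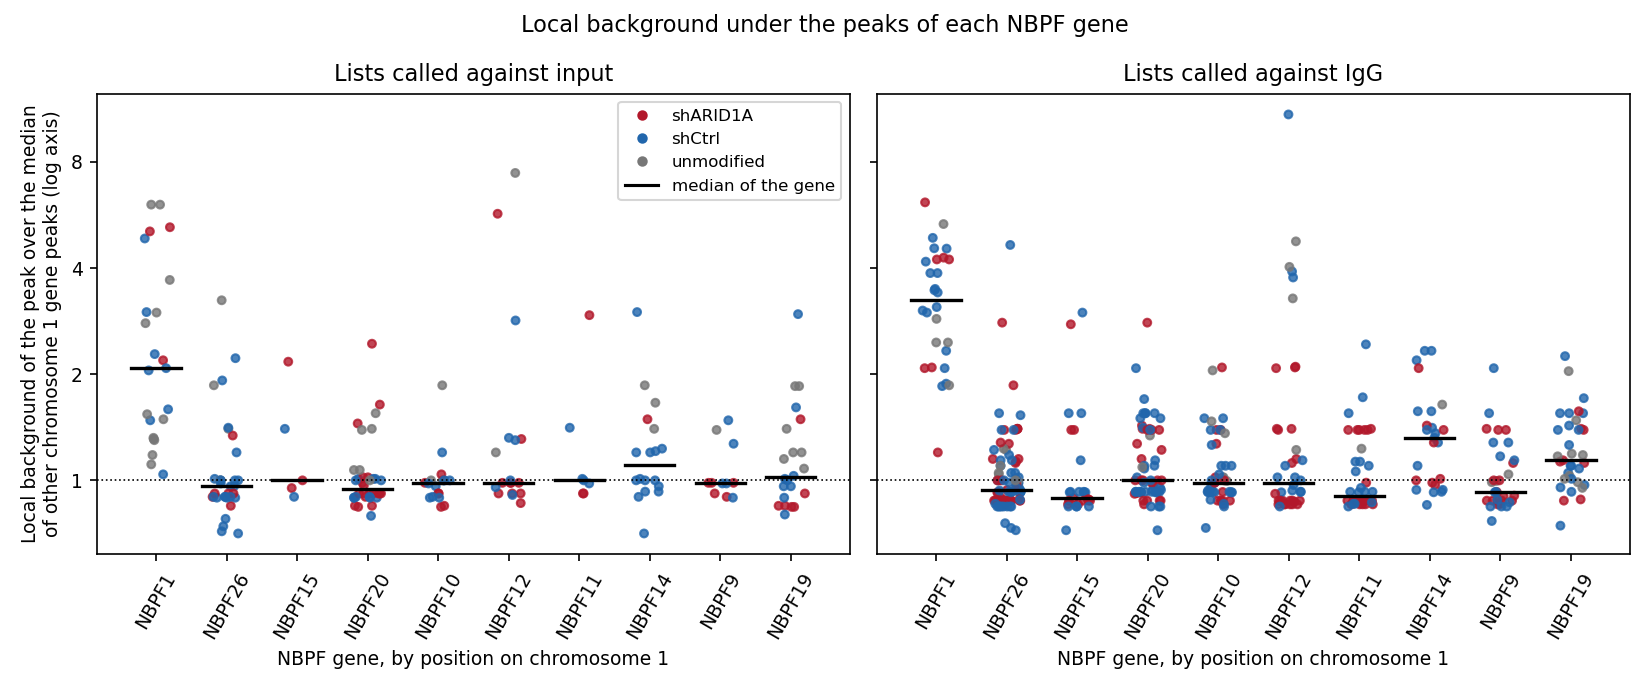
Local background under each peak of the 10 NBPF genes, divided by the median over peaks of other chromosome 1 genes in the same list (log axis); points are peaks coloured by cell state and black lines are medians. NBPF1 stands above the other genes, with medians of 2.08 against input and 3.25 against IgG.

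The unmodified lists had the deepest peaks, with a median of 13 fragments per NBPF peak against input, against 5 in shARID1A and 6 in shCtrl lists. In these unmodified lists the NBPF background was a median of 1.4 times that of other genes against input, both with NBPF1 and without it. Against IgG it was 1.22 with NBPF1 and 1.17 without it. In shARID1A and shCtrl lists it was 0.918 and 1.00 against input, and 0.971 and 1.00 against IgG. Of other peaks, 48.6% to 59.4% lay at the floor in unmodified input lists, against 11.7% to 39.3% in shARID1A and shCtrl input lists. The ratio had less room below 1 there, so the states are not compared on equal terms.

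Peaks at the start windows were found at the 5 CpG-rich genes and at none of the 3 CpG-poor ones (NBPF10, NBPF14 and NBPF19). Other CpG-poor starts of chromosome 1 had one in 0.18% to 13.8%, by list, so 0 of 3 does not set these apart, and the inner NBPF14 window had 1 peak in the 20 lists. Nearly all were weak and most were called against IgG. ARID1A in shCtrl cells had a peak against IgG at the start of all 5, that is, of 5 of 8 NBPF genes, against 37.6% of other chromosome 1 genes and 51.4% of those with at least 10 CpG in the window. Their folds were 3.48 at NBPF12, 3.29 at NBPF11, 2.84 at NBPF1, 2.35 at NBPF15 and 2.23 at NBPF9. Against input 2 of 8, NBPF11 (2.92) and NBPF12 (2.82), had one, against 10.4% of other genes and 13.9% of those with at least 10 CpG. In unmodified cells ARID1A had none with either control, where 1.55% and 3.11% of other genes had one.

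In shARID1A cells the same starts carried H3K9me3, TRIM28 and SETDB1 peaks. TRIM28 had one at NBPF1, NBPF9 and NBPF15 against input (13.7% of other genes), with folds of 2.64, 3.19 and 3.25, and at these and NBPF11 against IgG (37.3%). H3K9me3 had one at 4 starts against IgG (37.5%) and at 0 against input (9.43%). SETDB1 had one at 3 starts against IgG (42.2%) and at 0 against input (11.5%). In shCtrl cells none of the 8 starts had an H3K9me3, TRIM28 or SETDB1 peak with either control, where the share of other genes was 2.47%, 0.748% and 21.2% against input and 10.5%, 4.2% and 29.8% against IgG. Among the 5 CpG-rich NBPF starts, 4 had a shARID1A H3K9me3 peak against IgG, 4 a shARID1A TRIM28 peak and 3 a shARID1A SETDB1 peak. Of other CpG-rich starts, 48.8%, 50.3% and 58.1% had one. Against input these shARID1A numbers were 0, 3 and 0, against 12.8%, 18.0% and 16.4%. In shCtrl cells all were 0, against 1.1%, 0.592% and 26.5% with input and 10.5%, 3.38% and 37.3% with IgG. The 5 genes are too few to set any of these apart.

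NBPF1 had the 1 strong start peak, for shARID1A H3K9me3 against IgG at chr1:16613657-16614010 (fold 3.38, 22 fragments, q 0.000227), 237 bases before its start, and no peak of that library was called there against input. Its local background was 5.8 fragments. NBPF12 had an unmodified H3K9me3 peak of 12 fragments at its start with both controls, with a fold of 2.23 in each and a q of 1, in lists where 0.115% of other chromosome 1 genes had one. In the windows that NBPF9 shares with NBPF15 and NBPF11 with NBPF12, printed above, fragments could come from either copy of a pair, and the peaks there rested on 4 to 12 fragments. The CpG-rich window of NOTCH2NLR, which starts at the left end of NBPF26 and holds 37 CpG, had IgG peaks for shARID1A H3K9me3 (fold 2.73), shARID1A TRIM28 (2.35), shARID1A SETDB1 (2.28) and shCtrl ARID1A (3.29), the same 4 libraries that gave every NBPF start peak but the unmodified H3K9me3 one of NBPF12.

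**Figure D5:**
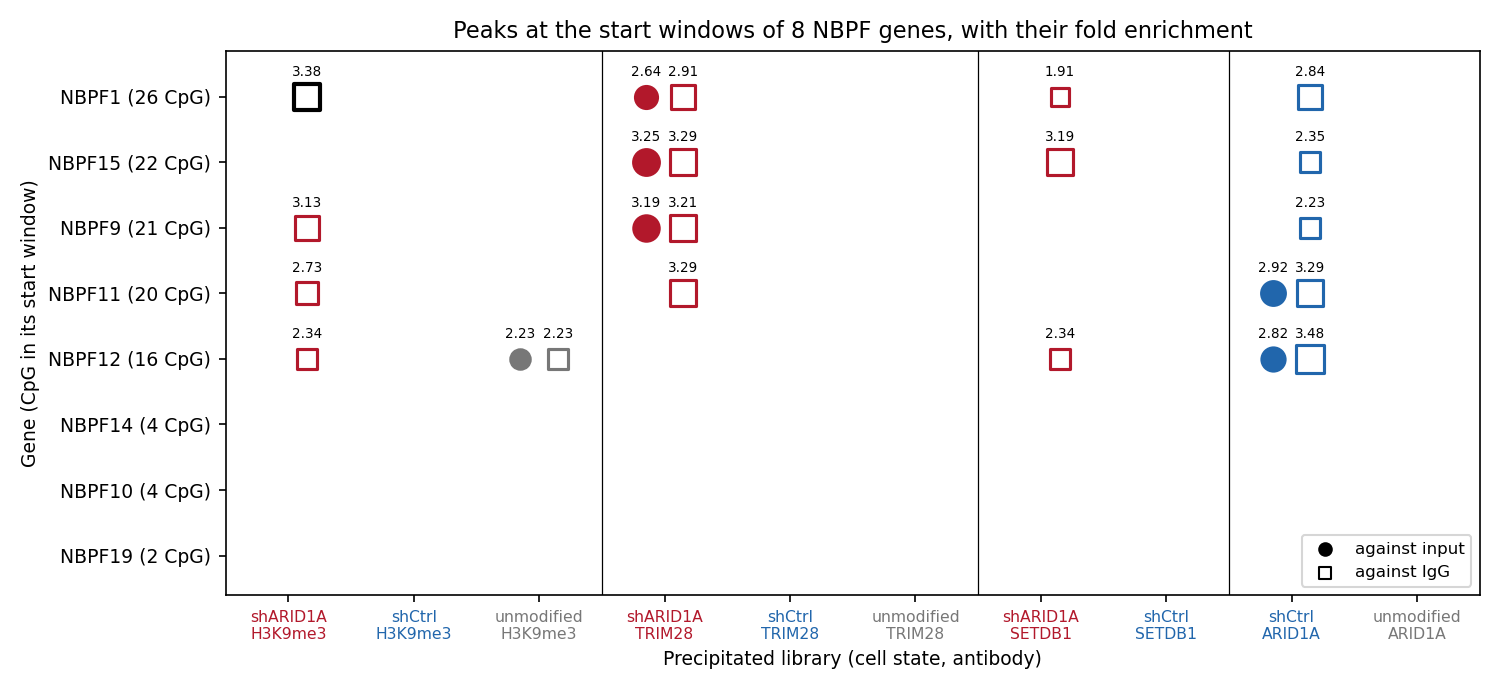
Peaks overlapping the start windows of 8 NBPF genes (rows, ordered by CpG number) by library, against input (filled circles) and IgG (open squares), with the fold enrichment printed above each; the black outline marks a q of at most 0.05. All lie at the 5 genes with 16 to 26 CpG, in shARID1A libraries, shCtrl ARID1A and, at NBPF12, unmodified H3K9me3.

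Few peaks were found again at the same place in another state, in the NBPF genes as in other chromosome 1 genes. Of the shARID1A peaks, 0 of 11 for H3K9me3 (exact 95% interval up to 28.5%), 1 of 42 for TRIM28 (2.38%) and 2 of 12 for SETDB1 (16.7%) overlapped a shCtrl peak of the same antibody. In other chromosome 1 genes the shares were 6.71%, 2.11% and 9.92%. Both repeated SETDB1 places are those given above, at NBPF14 and near the start of NBPF19. Of the shCtrl peaks, 0 of 29 for H3K9me3, 2 of 35 for TRIM28 and 0 of 18 for ARID1A overlapped an unmodified peak, against 0.704%, 2.15% and 3.61% in other chromosome 1 genes. The lists of a state were taken to share their input and IgG libraries, so overlaps between antibodies within a state are not independent. Of the shCtrl H3K9me3 peaks, 6 of 29 (20.7%) lay at a shCtrl TRIM28 peak, against 6.15% in other chromosome 1 genes, and 2 of 29 (6.9%) at a shCtrl SETDB1 peak, against 21.1%. Against IgG the TRIM28 share was 9 of 50 (18.0%), against 12.7%. In shARID1A cells 2 of 11 H3K9me3 peaks lay at a TRIM28 peak (18.2%, against 20.0%) and 0 of 11 at a SETDB1 peak (8.96%). Against IgG these were 12 of 61 (19.7%, against 20.8%) and 15 of 61 (24.6%, against 21.9%).

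Summed over the 10 libraries, the NBPF genes held 265 peaks per Mb against input and 587 against IgG. For 11 other NBPF genes and pseudogenes the values were 221 and 613. For 24 duplicated neighbours of the NOTCH2NL, SRGAP2, FAM72, PPIAL4 and other families they were 385 and 1030. For 27 genes of 1q21 taken to be unique, which was not measured, they were 314 and 1040. The NBPF genes thus had the lowest IgG density of the 4 lists and the second lowest input density. Their highest fold was 7.33, in the part of NBPF26 that belongs also to NOTCH2NLR. NOTCH2NLR is among the duplicated neighbours, so the 2 lists share peaks. The highest folds of the neighbours were at SRGAP2B for shCtrl SETDB1, 25.4 against IgG and 20.3 against input. For the unique genes the highest was 9.12, for shCtrl SETDB1 against IgG. These maxima come from unlike numbers of peaks, with 441 IgG peaks in the NBPF genes, 2169 in the neighbours and 876 in the unique genes.

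Among 3349 protein-coding genes of at least 100 kb, the genes whose density ratio over the 20 lists ran most like that of the NBPF genes together were PEX5L (Spearman rho 0.836), PLPP4 (0.826), ESR1 (0.82) and DDR2 (0.814), against a median rho of -0.073 over all of them. The 20 lists come from 10 libraries and share controls, so these values are descriptions.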

How the data were processed

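The submitters' processing notes name Bowtie2 2.2.5, MACS2 2.2.7.1, FastQC 0.11.9, ChIPseeker and deepTools 3.5.1, and the builds hg38 and GRCh38. Read filters and the treatment of multiply mapping reads are not given there. The authors called peaks per library. The deposited columns give a display score, a fold enrichment (a ratio of summit signal to local background), −log10 p and −log10 q, and the summit offset as another number. The control of each list was read from the name of the deposited list. Protocol and sample characteristics name unlike antibody products for TRIM28 and H3K9me3.

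Here peaks were counted in RefSeq GRCh38.p14 gene bodies extended by 1 kb, at an overlap of at least 1 base. Density ratios have exact 95% binomial intervals and their log2 differences Wald intervals. Fold and p were solved for a whole number of fragments and a local background, to within 0.004 fragments. This held for 99.8% or more of 400 peaks drawn from each list with those of high fold left out. The solution was the only one for 86.0% or more of them. In 13 lists the library had been scaled down. The scripts were tested on simulated data (Python 3.11.15, numpy 2.4.6, pandas 2.3.3, scipy 1.17.1, biopython 1.88, matplotlib 3.10.9). All 10 genes are named. Peaks with coordinates are the highest strong input peak of a gene, those strong with both controls and those at starts, and others named were chosen after their values were seen. The genes and gene lists were chosen with earlier results of these data known. With 1 library per group no group comparison was tested.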

Additional observations from a re-analysis of the deposited data

How the results depend on the processing

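No paired analysis was possible because each group has 1 library. Each density ratio was recomputed against IgG, with strong peaks alone, with the 10000 peaks of smallest p, by summit or with at least 50% of the peak inside, with no or 5 kb extension, after merging peaks within 1 kb and, added after seeing the data, without NBPF1. It moved beyond its counting interval in 15 recomputations and in 73 it did not. Against IgG it was 1.17 for unmodified H3K9me3, 0.540 for shARID1A TRIM28, 1.09 for shCtrl TRIM28 and 0.864 for unmodified TRIM28. With strong peaks it was 1.89 for shARID1A TRIM28, on 1 NBPF peak, the one of NBPF20 known when the genes were chosen. The ratio was 0 for shARID1A H3K9me3, shCtrl TRIM28, shARID1A SETDB1, shCtrl ARID1A and unmodified ARID1A. For shCtrl TRIM28 and shCtrl ARID1A the other chromosome 1 genes held only 1 strong peak each, so these values of 0 cannot show a sparsity. With the top 10000 the ratio was 0 for shARID1A H3K9me3, 0.538 for shCtrl H3K9me3, 1.45 for shARID1A TRIM28, 2.90 for shCtrl TRIM28 and 0.260 for shCtrl ARID1A. The cause was not tested, beyond the small number of peaks that strict lists leave. All 23 recomputed shARID1A to shCtrl differences stayed inside the counting interval of the value against input, those of TRIM28 being descriptions, and H3K9me3 against IgG (0.07) had the other sign. They could not be computed where a strict list held no NBPF peak, nor could the ratio with strong peaks for unmodified H3K9me3 and TRIM28, whose strong peaks missed all chromosome 1 genes. The count of genes with a peak moved by over 1.5 times in 19 recomputations and by less in 71. At 5 to 7 fragments per typical peak, single peaks and single genes are poorly determined.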
